A study of Mus musculus with 12 samples.

Results

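Genes for the proteins of the mitochondrial ribosome were examined in RNA-seq of the mouse ventral hippocampus (males, C57BL/6 background). They were chosen by symbol alone, as the rows whose symbol starts with Mrpl or Mrps and a number, without pseudogene symbols. Of 17564 genes with a value, 81 rows matched, 4 pseudogene rows were left out, and 77 genes remained. They comprised 48 Mrpl genes, named for the large subunit, and 29 Mrps genes, named for the small subunit. Of the 78 protein-coding genes with such a symbol in GENCODE M21, Mrpl53 was not analysed here.

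The study had 12 libraries in 4 groups of 3: wild-type (WT) mice under vehicle (VEH) or corticosterone (CORT), and heterozygous BDNF Val66Met (BDNF het-Met) mice under VEH or CORT. CORT, the main glucocorticoid of rodents, was given by mouth at 25 mg/l in 1% ethanol for 6 weeks, starting at an age of 2 months, and VEH mice received the 1% ethanol without hormone. BDNF het-Met mice carry a knock-in of the Met-coding variant in 1 of the 2 copies of the gene for brain-derived neurotrophic factor in every cell. Each library held the RNA of 2 animals. The value analysed for each gene is its mean level over libraries on the log2 scale of counts scaled to library size (log2 CPM), made by the authors, and it was identical for each gene in the tables of both genotypes. It joins both genotypes and both treatments, so no group is compared with another here, the effect of CORT was not analysed, and no spread over libraries can be given with a level. The authors give an approximate depth for these libraries as a set, and the depth of each single library is unknown.

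Mitochondria translate a small set of proteins from their own genome, all of them subunits of the respiratory chain and ATP synthase, and they do so on a ribosome of their own. The RNA of that ribosome comes from mitochondrial DNA, whereas its proteins are encoded in the nucleus, translated in the cytosol and imported. Many of these proteins have relatives in the bacterial ribosome and others are found only in mitochondria. The large subunit joins amino acids, and the small subunit reads the messenger RNA.

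Markers of the labelled tissue were present. The neuronal genes Snap25 and Syt1 had mean levels of 11.42 and 11.00 log2 CPM, and the dentate granule cell genes Prox1 and C1ql2 had 6.68 and 5.93 log2 CPM. Markers of other cells were present too, with Mbp of oligodendrocytes at 10.49, Gfap of astrocytes at 8.21, Cx3cr1 of microglia at 5.89 and Cldn5 of endothelium at 4.81 log2 CPM. Of the choroid plexus genes, Ttr was at 9.44, Kl at 6.17 and Folr1 at 2.84 log2 CPM. The levels below therefore come from a mixture of cell types, and fewer cells of a type and less RNA per cell cannot be told apart in such tissue.

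All 77 members are annotated as protein coding, and most were of middle abundance. Their mean level ran from -1.30 to 5.86 log2 CPM with a median of 4.42, beside a median of 3.87 over all genes and 4.42 over the 14468 protein-coding genes. Longer transcripts give more reads, so levels of different genes were compared per kilobase of the longest annotated transcript. On that scale the members had a median of 3.46 log2 CPM per kilobase, beside 2.34 over all genes and 2.68 over protein-coding genes, and 65 of the 77 lay above the median of all genes. Members had short transcripts, with a median of 1884 bases against 3477.5 over protein-coding genes. The middle of the list was narrow, with quartiles at 2.69 and 4.0 log2 CPM per kilobase. Those of all genes were at 0.40 and 3.85, and those of protein-coding genes at 0.98 and 4.04. With each mean log2 CPM turned back to the CPM scale, the members took 0.169% of the sum over all genes.

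**Figure D1:**
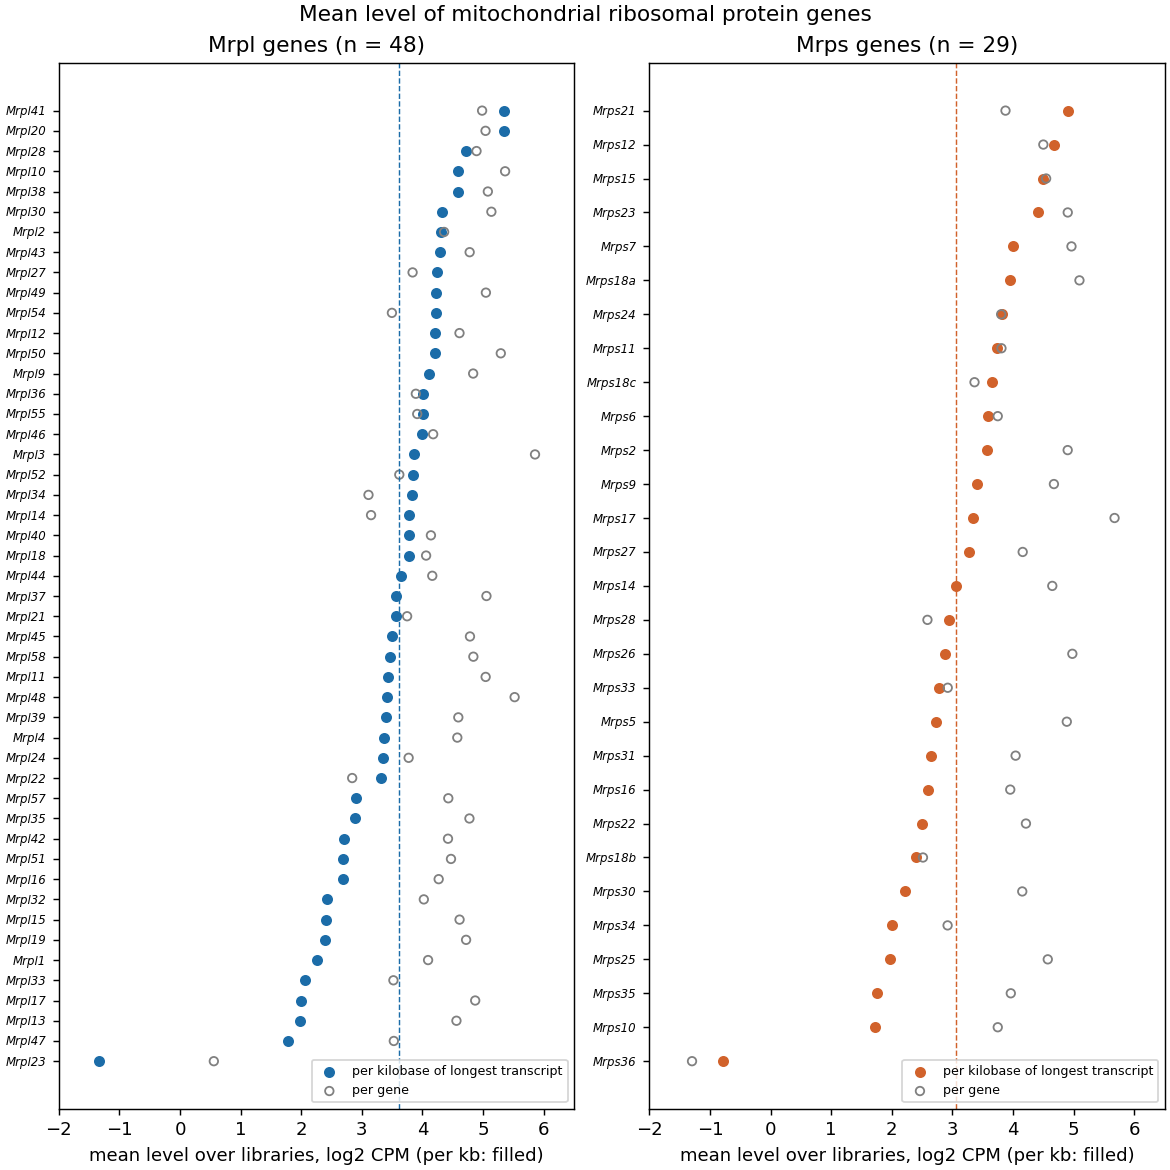
Mean level over libraries of the 48 Mrpl genes (left) and 29 Mrps genes (right), in log2 CPM per kilobase of the longest transcript (filled points, by which genes are sorted, with the median as a dashed line) and in log2 CPM per gene (open points). Most genes lie close together on the scale per kilobase, and Mrpl23 and Mrps36 lie far to the left of the rest.

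In the large subunit, Mrpl41 had the highest level per kilobase, at 5.35 log2 CPM per kilobase, followed by Mrpl20 at 5.34 and Mrpl28 at 4.71. Mrpl41 is a protein found only in the mitochondrial ribosome, while Mrpl20 and Mrpl28 have bacterial relatives. By level per gene the 5 highest were Mrpl3 (5.86 log2 CPM), Mrpl48 (5.52), Mrpl10 (5.36), Mrpl50 (5.29) and Mrpl30 (5.14). Mrpl3, whose bacterial relative lies close to the site of peptide bond formation, has a longest transcript of 3972 bases and stood at 3.87 log2 CPM per kilobase, 24th among all members. Mrpl10 forms the base of the stalk that recruits translation factors and stood at 4.59 log2 CPM per kilobase. Its stalk partner Mrpl12, the protein that is present in several copies per ribosome, was at 4.21 log2 CPM per kilobase.

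The 5 lowest large-subunit genes per gene were Mrpl23 (0.56 log2 CPM), Mrpl22 (2.84), Mrpl34 (3.11), Mrpl14 (3.15) and Mrpl54 (3.50). The order changed per kilobase. Mrpl34 then stood at 3.83, Mrpl14 at 3.78 and Mrpl54 at 4.22 log2 CPM per kilobase, all above the median of the members. Mrpl23, whose bacterial relative lines the exit of the peptide tunnel, was the lowest of the large-subunit genes on both scales. It was also the lowest of all members per kilobase, at -1.34 log2 CPM per kilobase. That value rests on a longest annotated transcript of 3715 bases, and a shorter expressed transcript would raise it.

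In the small subunit, Mrps21 had the highest level per kilobase at 4.91 log2 CPM per kilobase, on a longest transcript of only 488 bases. Mrps12, whose bacterial relative is part of the decoding centre, followed at 4.68, and Mrps15 was at 4.49 log2 CPM per kilobase. By level per gene the 5 highest were Mrps17 (5.67 log2 CPM), Mrps18a (5.10), Mrps26 (4.98), Mrps7 (4.96) and Mrps23 (4.90). Mrps18a, named for the small subunit, is placed in the large one in structures of the mammalian mitochondrial ribosome, as is Mrps30, which was at 4.15 log2 CPM.

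The 5 lowest small-subunit genes per gene were Mrps36 (-1.30 log2 CPM), Mrps18b (2.51), Mrps28 (2.59), Mrps34 (2.92) and Mrps33 (2.92). Mrps36 lay at the 0.774th percentile of all genes. Despite its name its protein is known as a component of the oxoglutarate dehydrogenase complex of the citric acid cycle, and not as a stable part of the ribosome. Without Mrps36 and Mrpl23, the lowest level among the members was 1.72 log2 CPM per kilobase, that of Mrps10.

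Grouped by symbol, the Mrpl genes had a median of 4.52 log2 CPM and the Mrps genes of 4.15, a difference of 0.36 on the log2 scale. Per kilobase the medians were 3.61 and 3.06, a difference of 0.55. With Mrps18a and Mrps30 counted in the large subunit and Mrps36 left out, the differences were 0.42 per gene and 0.44 per kilobase. Both ranges overlapped over most of their length, with quartiles at 2.84 and 4.21 for Mrpl genes and at 2.49 and 3.73 log2 CPM per kilobase for Mrps genes. Genes are not replicates of a condition, so this difference carries no test.

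Levels were then set out by the origin of the proteins, classed from general knowledge, so single genes may be misplaced. Mrpl55, Mrps18a, Mrps30 and Mrps36 were left out of these groups. In the large subunit, the 29 genes classed with bacterial relatives had a median of 3.44 log2 CPM per kilobase. The 18 classed as found only in mitochondria had 3.72. In the small subunit the order was the other way round. The 16 genes classed with bacterial relatives had 3.58 and the 10 classed as found only in mitochondria had 2.71. Their medians per gene were close, at 4.23 and 4.10 log2 CPM, and the longest transcripts had medians of 1538.5 and 2254.5 bases, so most of the gap per kilobase goes with length. Among the latter were Mrps35 at 1.76 and Mrps25 at 1.97 log2 CPM per kilobase, and Mrps23 at 4.41 was the highest. Mrpl58, a release factor built into the large subunit that frees stalled peptides, was at 3.46 log2 CPM per kilobase, and Mrpl45, which holds the ribosome to the inner membrane, was at 3.50.

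Other proteins of the same ribosome do not carry an Mrpl or Mrps symbol. Of these, Aurkaip1 was at 5.06, Chchd1 at 4.58, Ptcd3 at 3.97, Dap3 at 3.72 and Gadd45gip1 at 2.11 log2 CPM per kilobase. Over a list of 28 genes of mitochondrial translation and transcription that includes these 5, 27 had a value, and their median was 2.51 log2 CPM per kilobase. In that list the elongation factor gene Gfm1 was at 3.58, the initiation factor gene Mtif2 at 3.21, and the elongation factor gene Tufm at 1.77. Lrpprc, which stabilises mitochondrial messenger RNA, was at 4.35, while its partner Slirp was at 0.28 log2 CPM per kilobase. Per gene Lrpprc was at 6.49 and Slirp at 1.72 log2 CPM. Sequence shared with other genes was not searched for in this list, and the longest annotated transcript need not be the expressed one. The nuclear genes for subunits of oxidative phosphorylation, whose mitochondrially encoded partners the ribosome makes, had a median of 5.96 log2 CPM per kilobase over 81 genes.

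**Figure D2:**
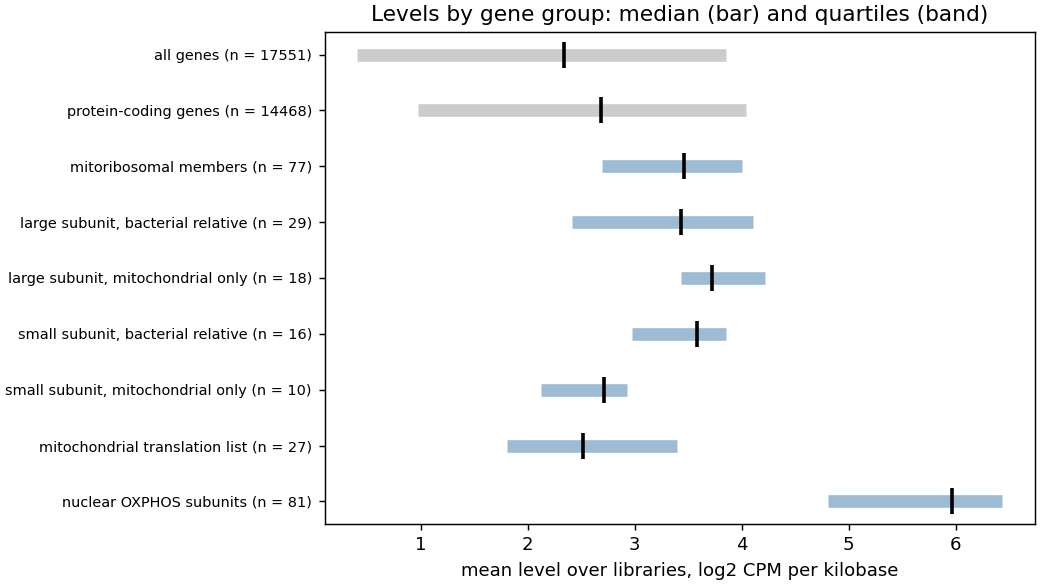
Mean level over libraries in log2 CPM per kilobase of the longest transcript for groups of genes, with the median as a black bar and the quartiles as a band. The members have a median of 3.46, between that of all genes at 2.34 and that of nuclear oxidative phosphorylation subunits at 5.96.

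Several members share sequence with other annotated genes, either copies elsewhere or transcripts that overlap at the same place, and a read that fits both cannot be given to one. Whole 75-base windows, the length of the reads, were taken from the longest annotated transcript of each member. They were searched for in all annotated transcripts of other genes. Of the 77 members 49 shared no window, and 28 shared at least 1. Mrpl3 and Mrps24 were among the 49, although their annotated exons share bases with another gene, as given below. The share was above 20% for 5 members, namely Mrps34 (36.9%), Mrpl22 (26.9%), Mrps18b (26.7%), Mrps36 (25.2%) and Mrpl27 (22.9%), so 4 of the 5 were among the lowest genes named above. All shared windows of Mrps34 were with Nme3, a nucleoside diphosphate kinase gene whose annotated transcripts overlap those of Mrps34 on the same strand, whereas Mrpl22, Mrps18b and Mrpl27 shared theirs with processed pseudogenes (Gm6997, Gm13552 and Gm6304). Their levels are uncertain to that extent, and the part of the shared windows in these levels was not tested.

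The 4 pseudogene rows had values of their own. Mrpl23-ps1 stood at 2.86 log2 CPM, above the 0.56 of Mrpl23 itself, and Mrps36-ps1 and Mrps36-ps2 stood at 0.81 and 0.34, above the -1.30 of Mrps36. Mrpl48-ps was at 2.97 log2 CPM and Mrpl48 at 5.52. Of the 3641 windows of Mrpl23, 106 (2.91%) occurred in other genes, most often in Mrpl23-ps1 with 60. That share is taken over a longest annotated transcript of 3715 bases and counts exact matches only. It would differ for a shorter transcript, so it does not measure how much the copy matters for the level of Mrpl23. For Mrps36, 125 of the 627 windows occurred in Mrps36-ps2. On the same strand, exon bases were also shared by Mrps6 with Slc5a3, by Mrps24 with Urgcp and by Mrpl3 with Gm38077. Reads there may belong to either gene. Only genes with a value were searched for such exons, so Nme3, which has none, was not found beside Mrps34. Exons shared with genes on the other strand were not searched for, and they would matter too if reads were counted without regard to strand.

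The members lay on 17 chromosomes in GRCm38, most on chromosome 11 with 11 genes and chromosome 17 with 8. Many of them began next to another gene. For 31 members (40.3%) the 5′ end of the gene in GENCODE lay within 1000 bases of that of a protein-coding gene on the other strand. The share was 13.7% for the 14468 protein-coding genes. In 20 of the 31 members the ends lay within 200 bases, and the share at that distance was not computed for all protein-coding genes. Among the 31 were 23 of the 48 Mrpl genes and 8 of the 29 Mrps genes.

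One such pair joined both subunits, namely Mrpl46 (chromosome 7, 78775236 to 78783531, minus strand) and Mrps11 (chromosome 7, 78783119 to 78792989, plus strand). Their 5′ ends overlap by these GENCODE bounds, which need not hold for the start sites of other annotations. Mrpl46 was at 4.18 and Mrps11 at 3.81 log2 CPM. Other partners act in the same organelle, such as Twnk, the mitochondrial DNA helicase, beside Mrpl43, Sars2, a mitochondrial transfer RNA synthetase, beside Mrps12, and Ndufb5, a subunit of respiratory complex I, beside Mrpl47. The levels of the partners spread more widely than those of the members, from -0.71 log2 CPM for Oaz3 beside Mrpl9 to 9.13 for Rab6a beside Mrpl48. Mrpl46 and Mrps11 are partners of each other, so the 31 members make 30 pairs. In 18 of the 29 pairs with a gene that is no member, the member was the higher, by level per gene and with no correction for length.

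Promoters were compared by the letters they hold, in windows of 250 bases before and 50 after the RefSeq start site on GRCm38.p6. The RefSeq start lay over 1000 bases from the 5′ end of the gene in GENCODE for 4 members, among them Mrpl36 (2496 bases), for which GENCODE also lists a longer transcript that begins beside Ndufs6. Of the 77 members 68 had a window, and 11313 protein-coding genes with a value had one. Both strands were searched for the letters GCGCANGCG, which NRF1 binds, CCGGAAG, the core bound by ETS factors such as GABPA, AAGATGGCG, which YY1 binds, and TATAAA of the TATA box. NRF1 and GABPA are known for driving nuclear genes of mitochondria. The ETS letters stood in 23 of 68 member promoters (33.8%) and in 16.5% of all. The NRF1 letters stood in 16 (23.5%) against 12.9%, and the YY1 letters in 8 (11.8%) against 2.87%. The TATA letters stood in 4 (5.88%) against 7.12%. A match describes the letters and does not show that a factor is bound.

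The part before the start site held the NRF1 letters in 13 members, the ETS letters in 15 and the YY1 letters in only 2. It is shown for the member of highest level per kilobase among those with each motif there, to let the letters be read in place. Each runs 5′ to 3′ on the strand of the gene, and capitals mark the NRF1 letters, read on the other strand, in Mrps21 (chr3:95871515-95871764, minus strand), the ETS letters in Mrpl43 (chr19:45006443-45006692, minus strand) and the YY1 letters, also on the other strand, in Mrpl36 (chr13:73330759-73331008, plus strand).
Mrps21: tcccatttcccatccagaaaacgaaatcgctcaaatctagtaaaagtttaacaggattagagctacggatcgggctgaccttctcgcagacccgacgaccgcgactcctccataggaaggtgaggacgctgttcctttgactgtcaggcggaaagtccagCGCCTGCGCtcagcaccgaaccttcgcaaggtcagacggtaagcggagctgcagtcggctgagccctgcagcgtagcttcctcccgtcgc
Mrpl43: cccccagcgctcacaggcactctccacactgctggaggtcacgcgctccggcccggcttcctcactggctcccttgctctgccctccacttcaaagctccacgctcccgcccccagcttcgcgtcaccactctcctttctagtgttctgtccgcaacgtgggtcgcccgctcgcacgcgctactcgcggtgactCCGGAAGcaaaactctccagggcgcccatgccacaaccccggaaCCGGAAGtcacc
Mrpl36: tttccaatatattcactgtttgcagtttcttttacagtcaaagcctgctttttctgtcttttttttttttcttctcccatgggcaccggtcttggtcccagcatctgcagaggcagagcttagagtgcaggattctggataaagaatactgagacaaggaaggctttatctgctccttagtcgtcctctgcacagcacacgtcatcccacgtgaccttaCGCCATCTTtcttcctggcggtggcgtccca

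Mrps21 was at 4.91, Mrpl43 at 4.30 and Mrpl36 at 4.01 log2 CPM per kilobase. Over all members with a window, the medians with and without a motif lay close together. The median was 3.45 log2 CPM per kilobase for the 16 with NRF1 letters and 3.57 for the 52 without, and 3.56 for the 23 with ETS letters and 3.57 for the 45 without. For the 8 with YY1 letters it was 3.65, beside 3.53 for the other 60.

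**Figure D3:**
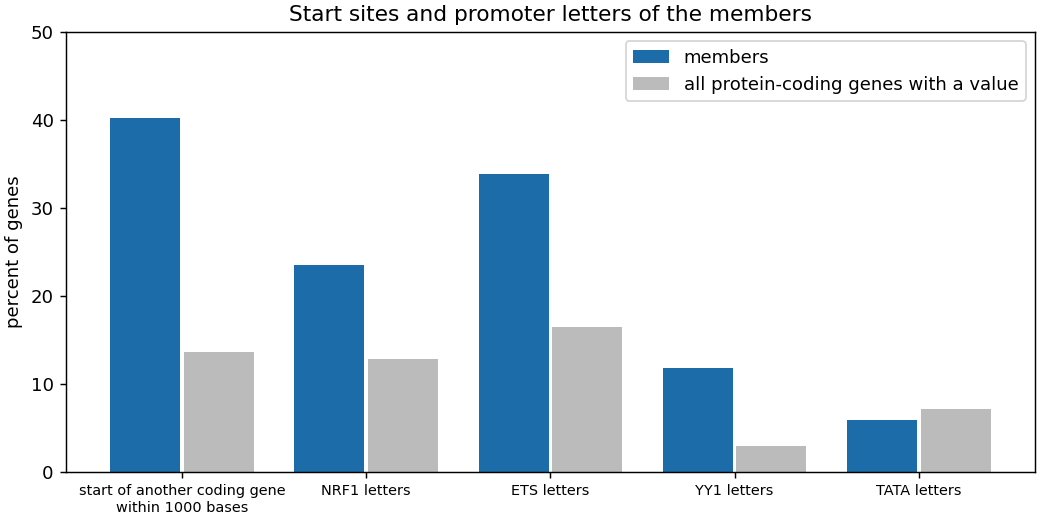
Percent of genes with the start of another protein-coding gene on the other strand within 1000 bases, and percent of promoters that hold each set of letters, for the members (blue) and for all protein-coding genes with a value (grey). The blue bar is the higher for shared starts (40.3% against 13.7%) and for the ETS, NRF1 and YY1 letters, and the lower for the TATA letters (5.88% against 7.12%).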

How the data were processed

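Upstream, the authors removed reads of low quality, used STAR for alignment to GRCm38 (mm10) with Ensembl gene models, took read numbers per gene from featureCounts, and modelled them by limma-voom. Not given in the sources used here were tool versions, any low-expression filter, scaling factors and the handling of multi-mapping reads. Whether reads were counted by strand was not given either. The deposited log2 values used here are the authors' mean log2 CPM over libraries, 1 per gene. The other columns of both tables hold the authors' own comparison of VEH and CORT within each genotype (fold change, standard error, test statistics, degrees of freedom and p-values) and were not used, so the tests planned per genotype could not be run.

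Symbols came from the tables and positions, lengths and transcripts from GENCODE M21 on GRCm38, matched by Ensembl identifier for 17551 genes and not for 13. Levels per kilobase are the mean log2 CPM minus the log2 of the longest transcript in kilobases. Promoters came from RefSeq (GRCm38.p6). Tools were Python 3.11.15, pandas 2.3.3 and numpy 2.4.6. Named genes were the 5 highest and 5 lowest per gene in each subunit, and others were named after their values were seen. The members and lists were chosen with earlier results of these data known, and the grouping by bacterial relatives was written after the tables were seen, from general knowledge.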

Additional observations from a re-analysis of the deposited data

How the results depend on the processing

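The difference between the medians of Mrpl and Mrps genes, 0.36 on the log2 scale per gene, kept its direction under every alternative run. It was 0.55 per kilobase of the longest transcript, 0.41 with members above 1 log2 CPM only and 0.38 with means in place of medians. Chosen after seeing the data, it was 0.43 per kilobase of all annotated exon bases, 0.42 per gene and 0.44 per kilobase with Mrps18a and Mrps30 counted in the large subunit and Mrps36 left out, and 0.38 without the 5 members that share over 20% of windows with other genes. Small-subunit genes classed with bacterial relatives had a median of 3.05 log2 CPM per kilobase of all annotated exon bases. Those classed as found only in mitochondria had 2.27. The longest annotated transcript need not be the expressed one, so the order of single genes per kilobase is less certain than the medians. No paired analysis was possible because the values used are means over libraries, with none for a single replicate. For the same reason no library was left out in turn, and what the depth of single libraries limits cannot be said.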
